A study of Mus musculus with 9 samples.

Results

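The adhesion, matrix and keratin genes described here were 54 of the 5301 genes in the deposited expression table of mouse 6DT1 cells. They were picked by symbol, with earlier results of these data known, as protein-coding genes in GENCODE M21 whose symbols belong to the integrin, cadherin, protocadherin, catenin, desmosome, tight junction, nectin, keratin, collagen, laminin, fibrillin, thrombospondin, syndecan, lysyl oxidase, transglutaminase, tenascin, metalloprotease or serpin families. The rule itself uses names and no values. Cdh5 and Itgb2 also match by name but the rule leaves them out, although both differed between the knockdown lines (adjusted p = 6.31e-07 and 9.67e-05), and they are read below as markers of endothelial cells and leukocytes.

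6DT1 is a cell line from a mammary tumor of an MMTV-Myc mouse, in which the mammary tumor virus promoter drives the Myc oncogene, and it can be transplanted into FVB/NJ mice. All 9 libraries came from cells under puromycin selection that carried a lentiviral hairpin, and RNA was taken 24 h after seeding. The shControl group (3 libraries, genotype label wildtype) carried a scramble hairpin, and shH4 and shH6 (3 libraries each) carried 1 of 2 shRNAs against Resf1, here called knockdown (KD) lines. Each group came from dishes of a single transduced line, so that hairpin and line cannot be told apart and the spread between libraries holds no variation between transductions. The 2 hairpins are shown because every comparison below sets one of them against the other or against the scramble, and they differ in sequence.
H4: tttcgatttgtaacataggtc
H6: aaacaaccaagttacctcagg

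Epithelial cells hold to one another through cadherins, nectins and desmosomes, with tight junctions sealing the space between them. They hold to the matrix through integrins, which pair an alpha with a beta subunit and bind laminins, collagens or fibronectin. Keratin filaments run inside the cell and are tied to desmosomes by desmoplakin, while matrix proteases, their inhibitors and cross-linking enzymes set how the matrix outside is cut and stiffened. In mammary tumors, shifts among these families are followed as signs of epithelial or mesenchymal character and of invasion.

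The deposited values were normalized counts, that is, estimated reads of a gene divided by a size factor for the library. A library held between 10.5 M and 19.9 M estimated reads in the genes of the table. The targeted gene was checked first. Resf1 had 1591, 1553 and 1610.0 normalized counts in the shControl libraries, 976, 953 and 1016 in the shH4 libraries and 1120.0, 1113 and 1130.2 in the shH6 libraries, which was 1.61-fold lower in shH4 and 1.41-fold lower in shH6, and the difference between the KD lines also passed the test (shH6 against shH4, adjusted p = 0.00984). The table was a selected one. All 5301 genes moved in the same direction in both KD lines, and all 5301 had an adjusted p under 0.05 for the mean of both KD lines against shControl. A call against shControl, and the agreement of its direction between the KD lines, was thus built into the table, and only the comparison of shH6 with shH4 was not selected on directly. Of 38 widely used symbols looked for by name, 9 were among the members, and genes of these families outside the table were not analysed here.

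Against shControl, 51 of the 54 members passed the test in shH4 (limma on log2(normalized count + 1), Benjamini-Hochberg adjusted p under 0.05), beside 95.7% of all genes in the table. Of these, 27 rose and 24 fell, where 49.2% of all genes rose and 46.5% fell. In shH6, 48 members passed, beside 96.1% of all genes, with 25 higher and 23 lower (all genes, 49.1% higher and 46.9% lower). In 36 members (66.7%) all 6 KD libraries lay on one side of the 3 shControl libraries, which held for 86.4% of the table. The genes of the table share 1 direction in both lines and differ from shControl over both together, so that most calls against shControl are built in. The members' share called in shH6 (48 of 54) and their share with libraries on one side lay below those of the table, a difference that was not tested. In bulk RNA of this kind, a lower value can stand for fewer cells of a type or for less RNA per cell, and these cannot be told apart.

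The selection did not set the sizes of the changes directly, but the sizes were not free of it. All genes of the table differed from shControl by test, which a scarce gene does only with a larger change. The median absolute change of the members reached 1.31-fold (shH4) and 1.36-fold (shH6), against 1.2-fold and 1.21-fold over all genes. A change of more than 2-fold in at least 1 KD line was seen in 9 members (16.7%) and in 294 genes (5.55%) of the table. Members were also listed at lower levels: 14 of them (25.9%) had a shControl mean under 100 normalized counts, against 8.68% of all genes. Of the 9 members with a change over 2-fold, 8 were among those 14, and Sdc2 was the exception. The part of the level and of the selection in the larger changes was not tested. The signed medians were 0.13 (shH4) and 0.07 (shH6) on the log2 scale, against 0.10 and 0.09 over the table. They depended on the scaling, since with upper quartile scaling they were 0.07 and 0.02, against 0.03 and 0.04, and the members called in shH6 were then 20 higher and 25 lower.

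**Figure D1:**
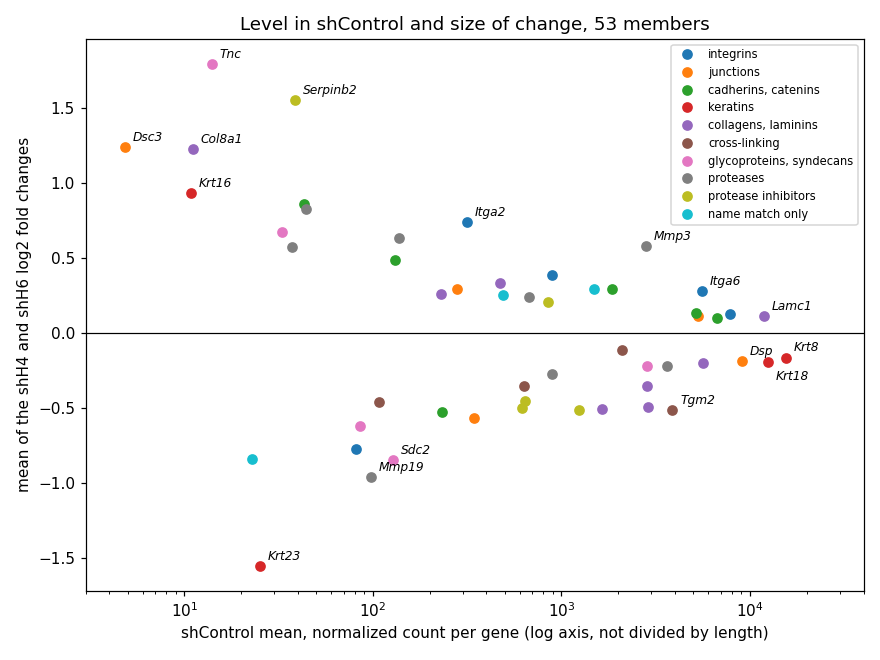
Level and size of change for 53 of the 54 members. The horizontal axis is the shControl mean in normalized counts per gene on a log scale, the vertical axis is the mean of the shH4 and shH6 log2 fold changes, and colours give the role. Tnc, Serpinb2, Dsc3 and Col8a1 lie highest, all under 40 normalized counts, and Krt23 lies lowest, whereas Krt8, Krt18 and Lamc1 lie near 0 at the right.

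**Figure D2:**
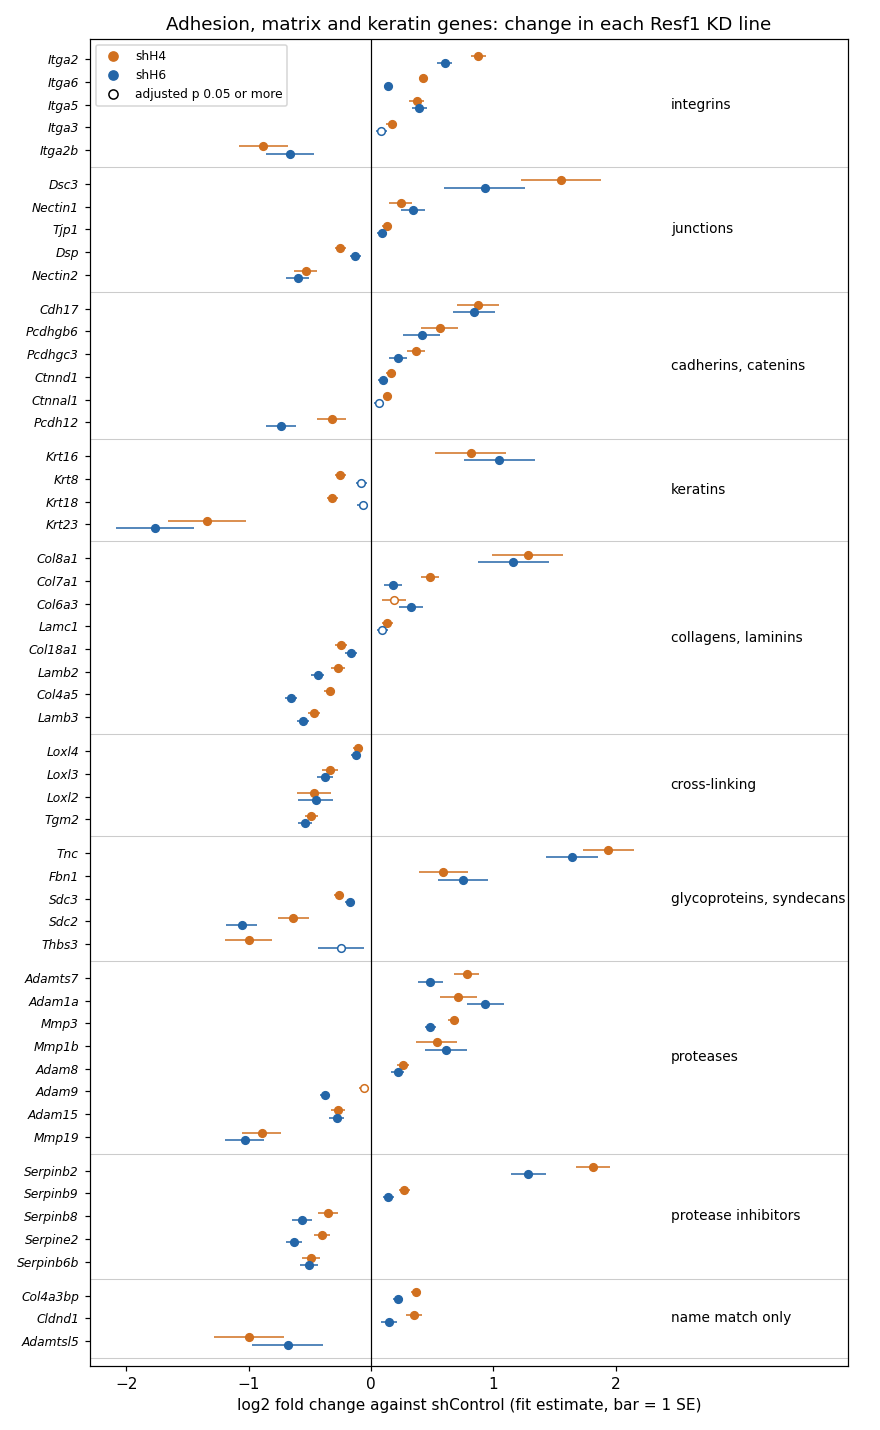
Log2 fold change of 53 of the 54 members against shControl in shH4 (orange) and shH6 (blue), grouped by role. Points are fit estimates from 3 libraries per group, bars are 1 SE, and open points had an adjusted p of 0.05 or more. All 4 cross-linking enzymes lie left of 0 in both lines, and 4 of the 5 integrins lie right of it.

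Of the 5 integrin alpha subunits, 4 rose in shH4 and 3 in shH6, and 1 fell in both. Itga2, a collagen receptor subunit, had 319.8, 312 and 311 normalized counts in the shControl libraries, 565, 590.2 and 581 in the shH4 libraries and 477, 497 and 458 in the shH6 libraries. The 3 groups did not overlap, with shH4 highest and shControl lowest. The log2 fold change against shControl, on the log2(normalized count + 1) scale, which understates the change of scarce genes, and with the SE of the fit after the ± sign here and below, was 0.88 ± 0.061 in shH4 (adjusted p = 7.69e-09) and 0.60 ± 0.061 in shH6 (adjusted p = 4.29e-07). Itga6, the laminin receptor subunit that joins the beta-4 subunit in hemidesmosomes, had 5558, 5676 and 5556 normalized counts in the shControl libraries, 7538, 7390.3 and 7600.4 in the shH4 libraries and 6295, 6152 and 6015 in the shH6 libraries. It showed the same order without overlap, but the rise in shH6 was small. The change was 0.42 ± 0.032 in shH4 (adjusted p = 1.96e-08) and 0.14 ± 0.032 in shH6 (adjusted p = 0.00104). Itga5, the fibronectin receptor subunit, had 858, 887 and 920.5 normalized counts in the shControl libraries, 1081, 1134 and 1248 in the shH4 libraries and 1175, 1079.7 and 1257 in the shH6 libraries. The KD lines overlapped with each other and both lay above shControl, at 0.38 ± 0.062 in shH4 (adjusted p = 5.55e-05) and 0.40 ± 0.062 in shH6 (adjusted p = 3.25e-05).

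Itga3, another laminin receptor subunit and the member with the highest integrin level per kilobase of exon in shControl (1370 normalized counts per kb), rose in shH4 by 0.17 ± 0.044 (adjusted p = 0.00226), and its value in shH6 was 0.08 ± 0.044 (adjusted p = 0.0755). The one integrin that fell was Itga2b, the platelet subunit, which sat at a low level. Itga2b had 79.9, 99.6 and 64.2 normalized counts in the shControl libraries, 46.3, 35.2 and 48.9 in the shH4 libraries and 39, 58.8 and 54.9 in the shH6 libraries. All 6 KD libraries lay below shControl, and the change was -0.88 ± 0.2 in shH4 (adjusted p = 0.00078) and -0.66 ± 0.2 in shH6 (adjusted p = 0.00508).

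The 5 junction genes went both ways, with 3 that rose and 2 that fell in each KD line. Dsc3, a desmosomal cadherin, had 5.47, 3.56 and 5.54 normalized counts in the shControl libraries, 13.8, 18.7 and 15.6 in the shH4 libraries and 11.5, 11.5 and 7.48 in the shH6 libraries, the lowest level of any member. The KD libraries lay above shControl at a few reads each, with a log2 fold change of 1.55 ± 0.33 in shH4 (adjusted p = 0.000498) and 0.93 ± 0.33 in shH6 (adjusted p = 0.0139). The shH6 call was lost without shControl replicate 2 (adjusted p = 0.0516) or shH6 replicate 1 (adjusted p = 0.0543). Dsp encodes desmoplakin, which ties keratin filaments to the desmosome, and had 8523, 9321 and 9213 normalized counts in the shControl libraries, 7229.9, 7524 and 7970.1 in the shH4 libraries and 8088, 7921 and 8721 in the shH6 libraries. It fell in both lines, with log2 fold changes of -0.25 ± 0.046 in shH4 (adjusted p = 0.000135) and -0.13 ± 0.046 in shH6 (adjusted p = 0.0133), although 1 shH6 library lay inside the shControl range. In shH6 that call was lost with column total scaling (adjusted p = 0.0884) and without shControl replicate 2 or 3 or shH6 replicate 2, at adjusted p values up to 0.0599.

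Nectin2, an immunoglobulin-like adhesion molecule of adherens junctions, had 375, 328 and 331 normalized counts in the shControl libraries, 228, 245 and 241 in the shH4 libraries and 259, 225 and 201 in the shH6 libraries. No KD library reached the lowest shControl library, and the change was -0.53 ± 0.094 in shH4 (adjusted p = 0.000103) and -0.60 ± 0.094 in shH6 (adjusted p = 3.28e-05). Its relative Nectin1 went the other way, by 0.24 and 0.34 on the log2 scale, and its shH4 call was lost with upper quartile scaling (adjusted p = 0.0894) and without shControl replicate 1, shH4 replicate 2 or shH4 replicate 3, at adjusted p values up to 0.134. Tjp1, the tight junction scaffold ZO-1, had 5357, 5492 and 5057 normalized counts in the shControl libraries, 5853, 5592 and 5981 in the shH4 libraries and 5727, 5517 and 5681 in the shH6 libraries. The KD libraries lay above shControl by a narrow margin, at 0.13 ± 0.038 in shH4 (adjusted p = 0.00449) and 0.09 ± 0.038 in shH6 (adjusted p = 0.0327). Upper quartile scaling took both calls away, with adjusted p = 0.0971 and 0.345, and the shH6 call was also lost without shControl replicate 3, shH6 replicate 1 or shH6 replicate 3, with adjusted p values of 0.0587 to 0.195.

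Among the 6 cadherins and catenins, 5 rose in shH4 and 4 in shH6, and Pcdh12 fell in both. Cdh17, a cadherin of liver and intestine, had 47.8, 48.6 and 32.1 normalized counts in the shControl libraries, 80.8, 81.3 and 72.4 in the shH4 libraries and 67.3, 72.4 and 91 in the shH6 libraries. Every KD library lay above the shControl libraries, at 0.87 ± 0.17 in shH4 (adjusted p = 0.000296) and 0.84 ± 0.17 in shH6 (adjusted p = 0.000377). Pcdh12, a protocadherin known from endothelial cells, had 207, 224 and 269 normalized counts in the shControl libraries, 173, 180.2 and 204 in the shH4 libraries and 164, 129 and 126 in the shH6 libraries. The 3 groups stood apart in the order shControl, shH4, shH6, with -0.32 ± 0.12 in shH4 (adjusted p = 0.0189) and -0.74 ± 0.12 in shH6 (adjusted p = 5.12e-05). The shH4 call was lost without shControl replicate 3, shH4 replicate 1 or shH4 replicate 2 (adjusted p 0.0524 to 0.117). The clustered protocadherins Pcdhgb6 and Pcdhgc3, which share exons so that the split of their reads is uncertain, rose in both lines. Pcdhgb6 rose by 0.56 (shH4) and 0.41 (shH6) on the log2 scale, and Pcdhgc3 by 0.37 and 0.22. Both shH6 calls were lost without shH6 replicate 3, at adjusted p = 0.101 and 0.0648, and also without shControl replicate 2 for Pcdhgb6 (adjusted p = 0.106) and without shControl replicate 1 for Pcdhgc3 (adjusted p = 0.0885).

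Ctnnd1, the catenin that holds cadherins at the cell surface, rose by 0.17 in shH4 and 0.10 in shH6. The shH6 call of Ctnnd1 was lost with upper quartile scaling (adjusted p = 0.316) and without shControl replicate 1, shControl replicate 3 or shH6 replicate 3, at adjusted p values of 0.0724 to 0.178. Ctnnal1, a catenin-like protein, rose in shH4 by 0.13, and its shH6 value was 0.06 (adjusted p = 0.0846).

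Keratins 8 and 18, the filament pair of simple and luminal epithelium, were the most abundant members per kilobase of exon in shControl, at 7892 and 8670 normalized counts per kb. Mmp3 came next at 1564. Krt8 had 16015, 14763 and 15580.1 normalized counts in the shControl libraries, 12653, 13589 and 12709.6 in the shH4 libraries and 14766, 15420.3 and 13714 in the shH6 libraries. The shH4 libraries lay below all the others, and shH6 overlapped shControl. Krt18 had 12980.3, 11822 and 12573 normalized counts in the shControl libraries, 9733, 10274 and 9995 in the shH4 libraries and 12108, 12453 and 11081 in the shH6 libraries, with the same order. Both keratins fell in shH4, with log2 fold changes of -0.25 ± 0.045 for Krt8 (adjusted p = 0.000118) and -0.32 ± 0.044 for Krt18 (adjusted p = 1.27e-05). In shH6 the values were -0.08 ± 0.045 and -0.07 ± 0.044 (adjusted p = 0.0953 and 0.139), and with upper quartile scaling these passed too, at adjusted p = 0.0122 and 0.0188. Both also passed in shH6 without shControl replicate 2 (-0.11 for each, adjusted p = 0.035 and 0.0382) and without shH6 replicate 2 (-0.12 and -0.10, adjusted p = 0.0248 and 0.0445), and Krt8 passed with library weights (adjusted p = 0.0474). Both were higher in shH6 than in shH4, by 0.17 ± 0.045 (adjusted p = 0.0232) and 0.25 ± 0.044 (adjusted p = 0.00209). Processed pseudogenes resembling both genes exist, and how reads shared with them were assigned is not given in the sources used here.

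The pair is encoded side by side, 23.7 kb apart in GRCm38, and moved together, so the 250 bases before each RefSeq start site (GRCm38.p6) are shown. Krt8 is on the minus strand, chr15:102004343-102004592, and Krt18 on the plus strand, chr15:102027966-102028215. Capitals mark the motif CAGGTG on either strand, the E-box read by Zeb and Snail factors.
Krt8: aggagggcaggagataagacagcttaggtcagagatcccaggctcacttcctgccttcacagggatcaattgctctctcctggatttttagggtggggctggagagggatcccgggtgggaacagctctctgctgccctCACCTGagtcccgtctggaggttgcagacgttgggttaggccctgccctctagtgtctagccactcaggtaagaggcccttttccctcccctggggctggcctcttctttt
Krt18: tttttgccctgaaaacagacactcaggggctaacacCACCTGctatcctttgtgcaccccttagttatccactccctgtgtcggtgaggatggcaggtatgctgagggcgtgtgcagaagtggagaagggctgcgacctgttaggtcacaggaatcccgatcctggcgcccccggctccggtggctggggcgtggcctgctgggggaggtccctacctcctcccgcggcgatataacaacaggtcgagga

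The match began 111 bases before the Krt8 start and 214 bases before the Krt18 start. CAGGTG was found in 20.2% of all 32851 mouse promoter windows (250 bases before to 50 after a start, either strand) and in 19.0% of the 42 windows of the members, so the matches are no more than a description. A window was found for 36 of the 54 members. The Myc E-box CACGTG was in 7.15% of all windows and in 1 member window, that of Krt23. GGGCGG, a GC box, was in 35.7% of all windows and 57.1% of the members' windows. TATAAA was in 13.6% and 19.0%.

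The other keratins were low. Krt16, a keratin of stressed and wounded epidermis, had 9.57, 11.9 and 11.1 normalized counts in the shControl libraries, 11.8, 25.3 and 25.4 in the shH4 libraries and 23.7, 24.1 and 22.4 in the shH6 libraries. It rose in both lines, with log2 fold changes of 0.81 ± 0.29 in shH4 (adjusted p = 0.0141) and 1.05 ± 0.29 in shH6 (adjusted p = 0.00307), although shH4 replicate 1 lay inside the shControl range. Without shH4 replicate 2 or 3 its shH4 call was lost (adjusted p = 0.0669 and 0.0694). Krt16 resembles other type I keratins closely, so that its few reads are uncertain. Krt23, another type I keratin, had 18.4, 27.3 and 29.9 normalized counts in the shControl libraries, 9.86, 6.59 and 11.7 in the shH4 libraries and 5.35, 8.39 and 6.24 in the shH6 libraries. All 6 KD libraries lay below shControl, and the change was -1.34 ± 0.32 in shH4 (adjusted p = 0.00123) and -1.77 ± 0.32 in shH6 (adjusted p = 0.000128). At 2.53-fold and 3.4-fold, it was the largest fall among the members.

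**Figure D3:**
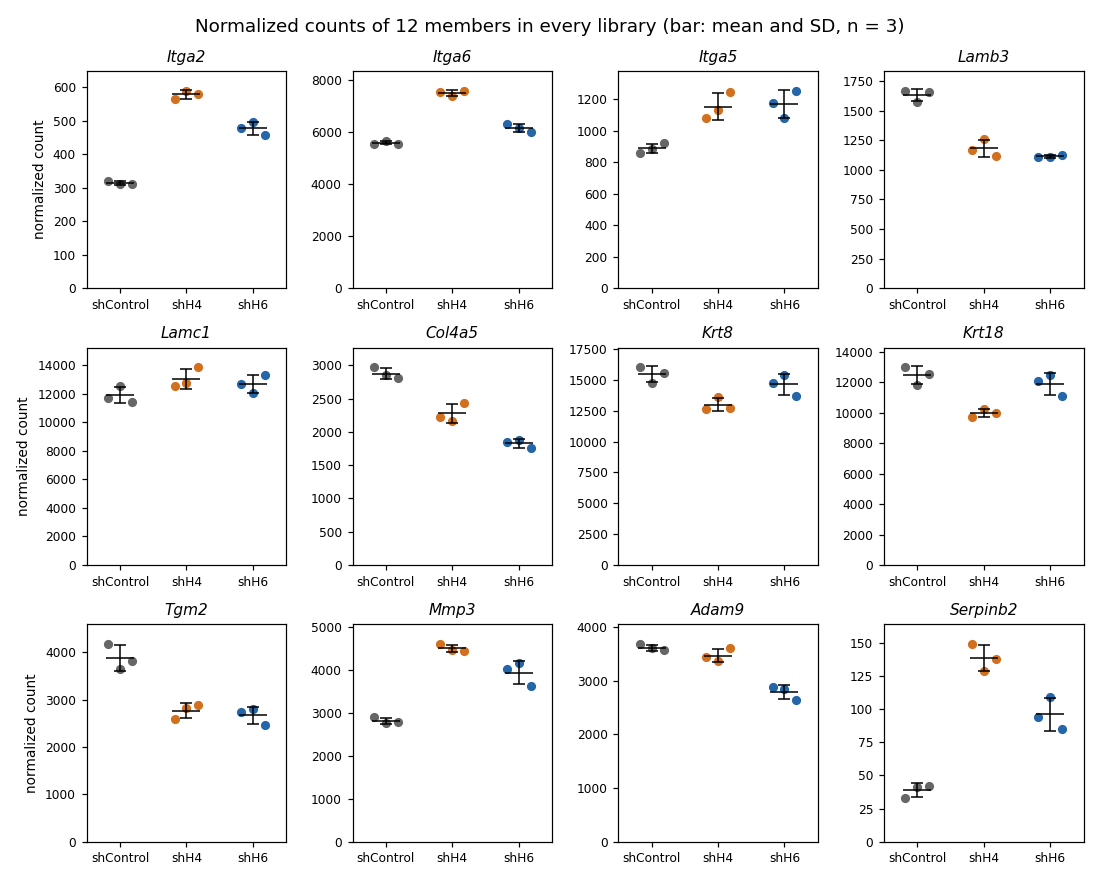
Normalized counts (vertical axes, from 0) of 12 members in each of the 9 libraries, by group. Points are libraries, and black bars give the mean and SD of 3. Itga2, Itga6, Mmp3 and Serpinb2 are highest in shH4 and intermediate in shH6, Krt8 and Krt18 are lowest in shH4, and Col4a5 and Adam9 are lowest in shH6.

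Collagens and laminins were divided. In shH4, 3 of 9 rose and 4 fell, and in shH6, 3 rose and 5 fell. Lamb3 encodes the beta chain of the laminin that lies under hemidesmosomes and is bound by the Itga6 and Itga3 receptors. Lamb3 had 1671, 1578 and 1655 normalized counts in the shControl libraries, 1171, 1262 and 1115 in the shH4 libraries and 1107, 1108 and 1126 in the shH6 libraries. The KD libraries lay well below shControl and overlapped each other, with -0.47 ± 0.049 in shH4 (adjusted p = 5.77e-07) and -0.55 ± 0.049 in shH6 (adjusted p = 1.03e-07).

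Lamc1, the gamma chain of most laminins, had 11694, 12512 and 11446 normalized counts in the shControl libraries, 12544, 12761 and 13838 in the shH4 libraries and 12665, 12049 and 13273 in the shH6 libraries. It rose in shH4 (0.13 ± 0.045, adjusted p = 0.011), although 1 KD library of shH6 lay inside the shControl range and the shH4 libraries only just cleared it. The call was lost with upper quartile scaling (adjusted p = 0.142) and without shControl replicate 3 or shH4 replicate 3 (adjusted p = 0.0588 and 0.0758). In shH6 its value was 0.09 ± 0.045 (adjusted p = 0.0623). Lamb2, the beta chain of synaptic and kidney basement membranes, fell, with log2 fold changes of -0.27 and -0.44.

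Col4a5, a chain of basement membrane collagen, had 2968, 2853 and 2802 normalized counts in the shControl libraries, 2222, 2165 and 2439 in the shH4 libraries and 1850.4, 1882 and 1749.5 in the shH6 libraries. The 3 groups stood apart, with shH6 lowest, and the change was -0.34 ± 0.047 in shH4 (adjusted p = 1.11e-05) and -0.65 ± 0.047 in shH6 (adjusted p = 1.12e-08). Col7a1 forms the anchoring fibrils beneath the epidermis and had 452, 492 and 464 normalized counts in the shControl libraries, 683, 689 and 599 in the shH4 libraries and 569.9, 471 and 559 in the shH6 libraries. The shH4 libraries lay above all others and shH6 overlapped shControl. Col7a1 rose by 0.48 ± 0.077 in shH4 (adjusted p = 4.42e-05) and 0.18 ± 0.077 in shH6 (adjusted p = 0.0347), but the shH6 call was lost with upper quartile scaling (adjusted p = 0.123) and when shControl replicate 1 or 3 or shH6 replicate 1 or 3 was left out (adjusted p from 0.0772 to 0.152).

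Col8a1, a short-chain collagen of vessel walls, was near the floor of the data with 15, 10.7 and 7.75 normalized counts in the shControl libraries, 18.7, 39.6 and 28.4 in the shH4 libraries and 26.8, 27.3 and 22.4 in the shH6 libraries. The KD libraries lay above shControl, with 1.28 ± 0.29 in shH4 (adjusted p = 0.000863) and 1.16 ± 0.29 in shH6 (adjusted p = 0.00164). Col18a1, the source of endostatin, fell, with log2 fold changes of -0.24 and -0.16. Col6a3 rose in shH6 (0.32, adjusted p = 0.00555), with 0.19 in shH4 (adjusted p = 0.0729).

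The 4 cross-linking enzymes fell in both lines, and in each of them all 6 KD libraries lay below the 3 shControl libraries. Libraries on one side were seen in 86.4% of all genes, and a shared direction in both lines was built into the table. Tgm2, a transglutaminase that cross-links fibronectin and other proteins, had 4172, 3639 and 3817 normalized counts in the shControl libraries, 2587, 2827 and 2882 in the shH4 libraries and 2738, 2795 and 2471 in the shH6 libraries. The KD lines overlapped each other, 1.4-fold and 1.45-fold below shControl, with a log2 fold change of -0.49 ± 0.056 in shH4 (adjusted p = 1.56e-06) and -0.54 ± 0.056 in shH6 (adjusted p = 5.06e-07). The lysyl oxidase-like enzymes cross-link collagen and elastin. As log2 fold changes (shH4 and then shH6), the values were -0.47 and -0.45 for Loxl2, -0.33 and -0.38 for Loxl3, and -0.11 and -0.12 for Loxl4. Both Loxl4 calls were lost with column total scaling (adjusted p = 0.0669 and 0.0553), and the shH4 call also without shH4 replicate 1 (adjusted p = 0.06). No cross-linking enzyme differed between the KD lines by test, with intervals for shH6 minus shH4 of -0.17 to 0.07 for Tgm2, -0.28 to 0.31 for Loxl2, -0.18 to 0.10 for Loxl3 and -0.10 to 0.06 for Loxl4.

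Tnc showed the largest rise of all members. It encodes tenascin-C, a matrix glycoprotein of wounds, embryos and tumor stroma, and had 15.7, 13 and 13.3 normalized counts in the shControl libraries, 46.3, 67 and 57.7 in the shH4 libraries and 51.3, 35.7 and 52.4 in the shH6 libraries. No KD library came near the shControl libraries. The rise reached 3.83-fold (shH4) and 3.12-fold (shH6), or 1.94 ± 0.21 in shH4 (adjusted p = 8.7e-07) and 1.64 ± 0.21 in shH6 (adjusted p = 4.53e-06) on the log2 scale. Its level per kilobase stayed among the lowest of the members (1.80 normalized counts per kb in shControl). Fbn1, the microfibril protein fibrillin-1, rose by 0.59 and 0.75. Its shH4 call was lost without shControl replicate 2 or shH4 replicate 1 (adjusted p = 0.0507 and 0.0531).

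The syndecans are surface proteoglycans that bind matrix and growth factors beside the integrins. Sdc2 had 128, 132 and 125 normalized counts in the shControl libraries, 73.9, 84.6 and 89 in the shH4 libraries and 64.3, 65.1 and 54.9 in the shH6 libraries. The groups stood apart, with shH6 lowest, and the change was -0.64 ± 0.13 in shH4 (adjusted p = 0.000286) and -1.06 ± 0.13 in shH6 (adjusted p = 2.19e-06). Sdc3 also fell, with log2 fold changes of -0.26 and -0.17. Thbs3, a matrix thrombospondin, had 92.9, 94.8 and 68.7 normalized counts in the shControl libraries, 45.3, 37.4 and 43 in the shH4 libraries and 72.7, 53.5 and 92.3 in the shH6 libraries. The shH4 libraries were lowest, and shH6 overlapped shControl. Thbs3 fell in shH4 (-1.0 ± 0.19, adjusted p = 0.000189), and its shH6 value was -0.25 ± 0.19 (adjusted p = 0.207). The shH6 value rested on single libraries, since it was -0.43 and passed without shH6 replicate 3 (adjusted p = 0.0395) and was -0.046 without shH6 replicate 2 (adjusted p = 0.806).

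Of the 8 proteases, 5 rose in each line, 2 fell in shH4 and 3 in shH6. Mmp3, the stromelysin that cuts many matrix proteins, was the most abundant protease in shControl per kilobase of exon. Mmp3 had 2897, 2759 and 2795 normalized counts in the shControl libraries, 4604, 4469 and 4442 in the shH4 libraries and 4031, 4166 and 3635 in the shH6 libraries. The 3 groups did not overlap, with shH4 highest, and the change was 0.68 ± 0.045 in shH4 (adjusted p = 4.07e-09) and 0.48 ± 0.045 in shH6 (adjusted p = 1.63e-07). The matrix protease gene Mmp1b, 57.8 kb away in GRCm38, had lower values and rose by 0.54 and 0.61. Mmp1b closely resembles its neighbour Mmp1a, so that its reads are uncertain.

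Both windows before these starts hold the AP-1 motif TGAGTCA and the core promoter box TATAAA, and they are shown because the 2 neighbours rose together. The stretches are chr9:7445572-7445821 on the plus strand for Mmp3 and chr9:7388027-7388276 on the minus strand for Mmp1b (RefSeq, GRCm38.p6), with both motifs in capitals.
Mmp3: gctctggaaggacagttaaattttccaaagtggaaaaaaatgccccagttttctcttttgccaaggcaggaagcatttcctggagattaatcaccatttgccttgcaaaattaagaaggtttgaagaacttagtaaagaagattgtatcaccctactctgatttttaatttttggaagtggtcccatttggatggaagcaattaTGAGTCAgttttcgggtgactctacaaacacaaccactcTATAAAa
Mmp1b: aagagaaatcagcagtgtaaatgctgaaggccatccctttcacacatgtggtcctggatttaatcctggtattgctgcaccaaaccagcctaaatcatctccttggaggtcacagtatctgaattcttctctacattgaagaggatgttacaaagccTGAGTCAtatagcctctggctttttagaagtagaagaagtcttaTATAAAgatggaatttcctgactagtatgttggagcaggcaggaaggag

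TGAGTCA began 46 bases before the Mmp3 start and 93 bases before the Mmp1b start. TATAAA began 7 and 49 bases before the same starts, and its use as a core promoter element was not tested. TGAGTCA was in 5.20% of all windows on either strand and in 7.14% of the members' windows, 3 in all, of which the other belonged to Serpinb8, a gene that fell. In none of the 4 printed stretches did matches of different motifs overlap, and no match was tested for binding of a factor.

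Mmp19, a protease of basement membrane proteins, had 121, 93.9 and 78.7 normalized counts in the shControl libraries, 51, 53.8 and 49.5 in the shH4 libraries and 49.6, 43.9 and 46.5 in the shH6 libraries. All KD libraries lay below shControl, with -0.90 ± 0.16 in shH4 (adjusted p = 0.000123) and -1.03 ± 0.16 in shH6 (adjusted p = 3.12e-05). Adam9, a membrane protease that sheds surface proteins, had 3676, 3597 and 3559 normalized counts in the shControl libraries, 3442, 3357 and 3597 in the shH4 libraries and 2871, 2841 and 2635 in the shH6 libraries. The shH4 libraries reached into the shControl range and the shH6 libraries lay below every other library. Adam9 fell in shH6 (-0.38 ± 0.04, adjusted p = 7.48e-07), and its shH4 value was -0.06 ± 0.04 (adjusted p = 0.159). With upper quartile scaling the shH4 value was -0.12 and passed (adjusted p = 0.0131).

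Adam1a was the protease that rose most by the lower of its 2 changes. It is known from sperm and has a near copy, Adam1b, so that its reads are uncertain. Adam1a had 53.2, 41.9 and 38.1 normalized counts in the shControl libraries, 70.8, 71 and 76.4 in the shH4 libraries and 81.9, 78.7 and 95.5 in the shH6 libraries. Both KD lines lay above shControl, and the shH6 libraries above those of shH4, a difference that was not called (adjusted p = 0.434). The log2 fold change was 0.71 ± 0.15 in shH4 (adjusted p = 0.00052) and 0.94 ± 0.15 in shH6 (adjusted p = 4.8e-05). Adamts7, which cuts cartilage matrix protein, rose by 0.78 and 0.49, and Adam8, a membrane protease, by 0.26 and 0.22. Adam15, another membrane protease, fell, with log2 fold changes of -0.27 and -0.28.

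The 5 serpins, inhibitors of serine proteases, split into 2 that rose and 3 that fell in each line. In all 5 the KD libraries lay on one side of shControl, which held for 86.4% of all genes. Serpinb2 encodes an inhibitor of plasminogen activators and had 32.8, 41.5 and 42.1 normalized counts in the shControl libraries, 149, 129 and 138 in the shH4 libraries and 94.1, 109 and 84.8 in the shH6 libraries. The 3 groups were far apart, with shH4 highest. The rise was 3.52-fold and 2.44-fold, or 1.82 ± 0.14 in shH4 (adjusted p = 2.89e-08) and 1.29 ± 0.14 in shH6 (adjusted p = 9.98e-07) on the log2 scale. Serpine2, the matrix inhibitor protease nexin-1, had 1307, 1218 and 1171 normalized counts in the shControl libraries, 841, 941 and 1024 in the shH4 libraries and 825, 770.2 and 786 in the shH6 libraries. It was lowest in shH6, with -0.40 ± 0.065 in shH4 (adjusted p = 4.91e-05) and -0.63 ± 0.065 in shH6 (adjusted p = 4.7e-07).

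The rest of the serpins act inside cells. Serpinb6b had 643, 599.9 and 600.4 normalized counts in the shControl libraries, 396, 478 and 439 in the shH4 libraries and 449, 413 and 434 in the shH6 libraries. Both KD lines lay below shControl and overlapped each other, at -0.49 ± 0.071 in shH4 (adjusted p = 1.74e-05) and -0.51 ± 0.071 in shH6 (adjusted p = 1.22e-05). Serpinb8 fell (-0.35 and -0.56), and Serpinb9, the granzyme B inhibitor, rose by 0.27 and 0.14. The shH6 call of Serpinb9 was lost with upper quartile scaling (adjusted p = 0.0829) and without shH6 replicate 2 (adjusted p = 0.0586). Neighbouring serpin genes did not share a direction, since Serpinb2 and Serpinb8 (54.5 kb apart) and Serpinb6b and Serpinb9 (24.2 kb apart) had opposite signs. Mouse Serpinb6 and Serpinb9 genes have close copies, so that the counts of Serpinb6b and Serpinb9 are uncertain.

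Another 3 genes matched by name only. Col4a3bp encodes a ceramide transfer protein and no collagen. It had 1436, 1510.2 and 1492 normalized counts in the shControl libraries, 1897, 1968 and 1850.4 in the shH4 libraries and 1708, 1763 and 1707 in the shH6 libraries, with no overlap between the groups and a change of 0.36 ± 0.041 in shH4 (adjusted p = 1.26e-06) and 0.22 ± 0.041 in shH6 (adjusted p = 0.000144). Adamtsl5, which lacks a protease domain, had 15.7, 22.5 and 29.9 normalized counts in the shControl libraries, 9.86, 11 and 10.8 in the shH4 libraries and 10.7, 13.6 and 16.2 in the shH6 libraries. Its shControl libraries spread so widely that the lowest overlapped shH6, and it fell, with -1.0 ± 0.29 in shH4 (adjusted p = 0.00442) and -0.68 ± 0.29 in shH6 (adjusted p = 0.0326). In shH6 that call was lost without shControl replicate 2 or 3 or without shH6 replicate 1 or 2 (adjusted p 0.0553 to 0.168). Cldnd1, with a claudin-like domain, rose by 0.35 ± 0.065 in shH4 (adjusted p = 0.000171) and 0.15 ± 0.065 in shH6 (adjusted p = 0.0393), and its shH6 call was lost with upper quartile scaling (adjusted p = 0.167) and without shControl replicate 1 or 3 or shH6 replicate 2 (adjusted p up to 0.145).

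The KD lines were then compared with each other, a comparison that the selection of the table did not fix directly. Of the 54 members, 15 (27.8%) differed between shH6 and shH4, against 8.26% of all genes. Without shH4 replicate 2 or shH4 replicate 3 the count was 9 members. In 12 of the 15 called with all libraries shH6 was lower (all genes, 4.38%) and in 3 it was higher (all genes, 3.89%). The shH6 and shH4 libraries did not overlap in 20 members (37.0%), where 24.8% of all genes showed this, and the 15 called members were all among them. At an unadjusted p under 0.05, 23 members (42.6%) and 21.5% of all genes differed. Resf1 itself differed in the same comparison, 1.14-fold higher in shH6, and the part of the depth of knockdown, of the line or of the hairpin in these differences was not tested.

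Since the table fixed the direction, the 15 differed in the size of their change. In 6 of them both lines rose and shH6 rose less. These were the receptor subunits Itga2 (-0.28 ± 0.061 as shH6 minus shH4 on the log2 scale, adjusted p = 0.00838) and Itga6 (-0.29 ± 0.032, adjusted p = 3.76e-05), the anchoring fibril gene Col7a1 (-0.30 ± 0.077, adjusted p = 0.0208), Mmp3 (-0.19 ± 0.045, adjusted p = 0.0112), Serpinb2 (-0.53 ± 0.14, adjusted p = 0.0273) and Col4a3bp (-0.14 ± 0.041, adjusted p = 0.0402). In another 6, both estimates were below shControl and that of shH6 was the lower, with the shH4 value of Adam9 not called. Among these were Col4a5 (-0.32 ± 0.047, adjusted p = 0.000473), Adam9 (-0.32 ± 0.04, adjusted p = 0.000113), Pcdh12 (-0.42 ± 0.12, adjusted p = 0.0412), Sdc2 (-0.42 ± 0.13, adjusted p = 0.0481) and Serpine2 (-0.23 ± 0.065, adjusted p = 0.0346). The last 3, Krt8, Krt18 and Thbs3 (0.75 ± 0.19, adjusted p = 0.0192), fell in shH4 and were higher in shH6.

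The calls between the lines differed in how they held. Itga2, Itga6, Col4a5, Krt18 and Adam9 were called under all 16 alternative settings. Mmp3 was lost without shH4 replicate 1 alone (adjusted p = 0.0562). Col7a1 was lost without shH4 replicate 1 or 2 or shH6 replicate 2 (adjusted p 0.0833 to 0.1), Krt8 without shH4 replicate 1 or 3 or shH6 replicate 1 or 2 (adjusted p 0.0842 to 0.105), Serpinb2 without shH4 replicate 1 or 3 or shH6 replicate 1 or 3 (adjusted p 0.0839 to 0.116) and Thbs3 without shH4 replicate 2 or 3 or shH6 replicate 1 or 3 (adjusted p 0.051 to 0.0832). Sdc2 was lost in 12 settings (adjusted p 0.0523 to 0.164), Col4a3bp in 9 (adjusted p 0.0515 to 0.14), Pcdh12 in 7 (adjusted p 0.0502 to 0.17) and Serpine2 in 5 (adjusted p 0.0514 to 0.175). All 4 lost the call without shH4 replicate 2, shH6 replicate 2 or shH6 replicate 3. Other single libraries that ended it were shH6 replicate 1 and shControl replicate 3 for Col4a3bp and Sdc2, shControl replicates 1 and 2 for Sdc2, shH4 replicate 1 for Col4a3bp and Pcdh12, and shH4 replicate 3 for Sdc2, Pcdh12 and Serpine2.

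**Figure D4:**
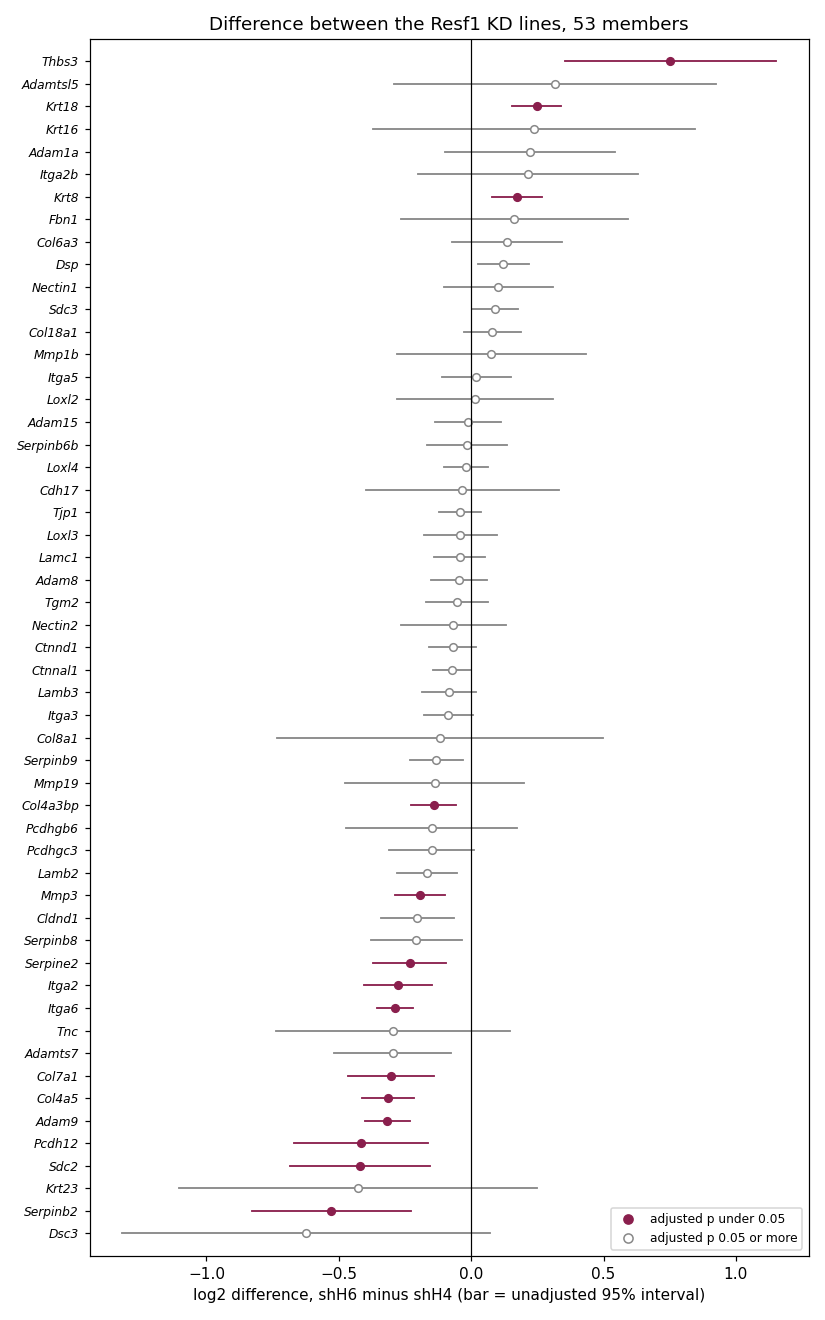
Log2 difference between the KD lines (shH6 minus shH4) for 53 of the 54 members, ordered by size. Points are fit estimates, bars their unadjusted 95% intervals, and filled points had an adjusted p under 0.05 over all 5301 genes. Of the 14 filled points, 11 lie left of 0, and the widest bars belong to members with few reads such as Dsc3, Krt23 and Col8a1.

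For the other 39 members the difference between the lines was not called, which does not show that they were alike. Their estimates ran from -0.62 (Dsc3) to 0.32 (Adamtsl5), and their 95% intervals reached as far as -1.318 and 0.924 on the log2 scale. The intervals were narrow in abundant genes, as in Itga5 (-0.11 to 0.15), Tjp1 (-0.12 to 0.04) and Tgm2 (-0.17 to 0.07), and wide in scarce ones, as in Col8a1 (-0.73 to 0.50) and Krt16 (-0.37 to 0.84). In 4 members a call in 1 line went without a difference between the lines. Ctnnal1, Lamc1 and Itga3 were called in shH4 only and Col6a3 in shH6 only, and they are not shown to respond differently. The missing call was gained with some settings. In shH6 this held for Lamc1 in 5 settings (adjusted p 0.0079 to 0.0484), Itga3 in 4 (adjusted p 0.0175 to 0.0457) and Ctnnal1 in 3 (adjusted p 0.00496 to 0.0219), column total scaling among them for each. In shH4, Col6a3 gained it with library weights (adjusted p = 0.0273) and without shControl replicate 2 (adjusted p = 0.0149). Single libraries whose omission gave the shH6 call were shControl replicate 2 (Lamc1 and Itga3), shH4 replicate 3 (Lamc1), shH6 replicate 1 (Itga3), shH6 replicate 2 (Lamc1 and Itga3) and shH6 replicate 3 (Ctnnal1). Between the lines, 6 of the 39 were called with at least 1 other setting, namely Lamb2 with 5, Itga3 and Adamts7 with 2 each and Cldnd1, Pcdhgc3 and Serpinb9 with library weights alone. Leaving out 1 library gave that call to Lamb2 (shControl replicate 1, shH4 replicate 1 or shH6 replicate 3, adjusted p = 0.0454, 0.0296 and 0.0252), Itga3 (shH6 replicate 3, adjusted p = 0.0359) and Adamts7 (shH6 replicate 2, adjusted p = 0.0288).

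Genes outside the 54 that act in the same processes were read from lists. Only genes of the selected table were counted, of which 49.2% rose and 46.5% fell in shH4, and 49.1% and 46.9% in shH6. Of 35 focal adhesion and actin linkage genes, 16 were in the table, of which 13 rose and 3 fell in shH4 and 13 rose and 2 fell in shH6, with median log2 fold changes of 0.17 and 0.14 (all genes, 0.10 and 0.09). The largest changes were in Ptk2b (-0.37 in shH4 and -0.48 in shH6), a kinase related to focal adhesion kinase, Parva (0.41 and 0.41), which links integrins to actin, Nedd9 (-0.36 and -0.09, adjusted p = 0.187 in shH6), a docking protein of focal adhesions that was higher in shH6 than in shH4 (adjusted p = 0.0102), and the actin cross-linker Actn1 (0.24 and 0.30). Of 35 polarity and junction scaffold genes, 10 were in the table. In that list 2 rose and 7 fell in shH4, and 3 rose and 7 fell in shH6, with medians of -0.15 and -0.22. The largest falls there were in Prkcz, a polarity kinase (-1.44 and -0.85), the tight junction genes Cgn (-0.74 and -0.65) and F11r (-0.40 and -0.47), and Jup, the desmosomal plakoglobin (-0.42 and -0.34).

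Of 21 Hippo pathway and YAP target genes, 8 were listed, and 7 rose and 1 fell in each line, led by the kinase Stk4 (0.62 and 0.61). Their median log2 fold changes were 0.24 and 0.20 (all genes, 0.10 and 0.09). The shared direction in both lines was built into the table. Of 25 TGF-beta ligands, receptors and Smads, 8 were listed, of which 3 rose and 4 fell (shH4), or 4 rose and 3 fell (shH6). Ltbp1, which holds TGF-beta in the matrix, rose (0.51 and 0.64), whereas the ligand Tgfb3 fell (-0.16 and -0.55) and was lower in shH6 than in shH4 (adjusted p = 0.000141). Of 18 transcription factors known for the epithelial to mesenchymal transition, 3 were listed. Zeb1 fell (-0.12 and -0.13), Zeb2 rose (0.34 and 0.24), and Twist1 fell in shH4 (-0.55) with -0.13 in shH6 (adjusted p = 0.0945) and was higher in shH6 than in shH4 (adjusted p = 0.00208). Of 23 collagen processing enzymes, 5 were listed, of which 2 rose and 2 fell (shH4), or 2 rose and 3 fell (shH6).

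Cell type markers were read beside these groups. Of 12 luminal epithelial markers, Krt8 and Krt18 were in the table, both at high levels in every library. None of 7 basal markers was in the table, and these were not analysed here. The fibroblast marker Pdgfra, 1 of 8, ranged from 69.7 to 107.9 normalized counts in the shControl libraries, with 118.7 to 162.3 for shH4 and 128.4 to 157.4 for shH6. The endothelial markers Pecam1 and Cdh5, 2 of 6, summed to 20.15 to 30.75 in shControl, 173.5 to 208.3 in shH4 and 26.01 to 31.18 in shH6, and both were called in shH4 only and differed between the KD lines. The leukocyte markers Itgb2 and Cd68, 2 of 7, summed to 3482 to 3666, 2362 to 2512 and 2856 to 3053 in the same order of groups. Itgb2 made up most of that sum and was 1.32-fold lower in shH4 and 1.07-fold lower in shH6, whereas the macrophage marker Cd68 was 2.82-fold and 2.97-fold lower. No listed marker was at 0, and the part of other cell types in the values of the adhesion, matrix and keratin genes was not tested.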

How the data were processed

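RNA-seq values of 9 libraries (3 shControl, 3 shH4, 3 shH6) were used. The authors aligned stranded total RNA reads with STAR 2.7.8a in Partek Flow and normalized by median ratio, and the submitters' processing notes name mm39 and DESeq2. The study's methods name a human genome for this alignment, but the deposited table holds mouse gene identifiers, and it was read as mouse. The annotation, how reads were counted and whether strand was used are not given in the sources used here, so antisense overlaps cannot be told apart. The deposited signal per gene was read from the values as estimated counts over a library's size factor (0.802 to 1.46). Of the values under 150, 74.2% to 78.4% per library were whole reads within 0.05, too few for a count test.

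The test was limma 3.58.1 (R 4.3.3) on log2(value + 1), as 1 model with a mean per group over all 9 libraries and empirical Bayes with trend, with Benjamini-Hochberg adjustment over all 5301 genes. Of these, 5258 matched GENCODE M21 by identifier, which gave symbols, types and exon lengths. The members, gene lists and motifs were chosen with earlier results of these data known. Values of every library were given for 9 widely used symbols among the members, for the most risen and most fallen member of each role called in both lines, and for each member that differed between the lines, 33 in all. One of them is counted among the members but not reported here by its values and not drawn. Alternatives were other scalings, a pseudocount of 5, a minimum of 10 in every library, 2-group fits, a replicate block, library weights and leaving out each library. The fitting script was tested on simulated data. In all 9 pairs of replicates the chi-square per gene (2.39 to 7.43) was above that of sampling noise. All 9 value columns matched a sample. The p-values measure the spread between dishes of 1 line.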

Additional observations from a re-analysis of the deposited data

Results flagged for a closer look

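Among the members, genes whose change differed between the KD lines by the test of the difference itself (shH6 minus shH4, limma, adjusted over 5301 genes) were singled out. On the log2 scale, the difference was negative for Serpinb2 (-0.53), Sdc2 (-0.42), Pcdh12 (-0.42), Adam9 (-0.32), Col4a5 (-0.32), Col7a1 (-0.30), Itga6 (-0.29), Itga2 (-0.28), Serpine2 (-0.23), Mmp3 (-0.19) and Col4a3bp (-0.14). It was positive for Krt8 (0.17), Krt18 (0.25) and Thbs3 (0.75). In all 14 of these genes the 3 shH6 libraries lay on one side of the 3 shH4 libraries, which held for 24.8% of all genes. The 14 were picked by a test on these same libraries, so that the separation adds no support.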

How the results depend on the processing

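For the 54 members against shControl and the 15 called between the lines, 16 alternatives gave 1958 values. Direction and side of the threshold held in 1832, a call was lost in 100 and gained in 26, and no direction reversed. For the 39 members not called between the lines, 619 values held 12 gained calls in 6 members, and the sign of the uncalled difference changed in 24 values of 13 members. Members called numbered 48 to 52 in shH4 and 42 to 49 in shH6 when 1 library was left out. Between the lines they numbered 9 to 15, with 9 called without shH4 replicate 2 and 9 without shH4 replicate 3, against 15 with all libraries, while the calls over all genes were 346 and 297 against 438. With upper quartile scaling the members called were 50 in shH4, 45 in shH6 (20 higher and 25 lower) and 13 between the lines, and with column total scaling 50, 49 (28 higher and 21 lower) and 12. Library weights gave 20 between the lines, and 684 over all genes. The median log2 fold change of the members moved with the scaling, from 0.1332 to 0.0721 (upper quartile) and 0.1598 (column total) in shH4, and from 0.0731 to 0.0214 and 0.1146 in shH6. The median of all genes moved with it, to 0.03 and 0.12 in shH4. Without 1 library the members' median ran from 0.101 to 0.1435 in shH4, from 0.0442 to 0.0863 in shH6 and from -0.097 to -0.0545 between the lines. A minimum of 10 in every library left 49 members. The labels number the libraries of each group 1 to 3, but same-numbered libraries did not deviate together (r from -0.155 to 0.108 over 9 pairs, 1 of them over 0.1). A replicate block gave 51, 48 and 14 members called, and with it the calls of Sdc2 and Pcdh12 between the lines were lost (adjusted p = 0.0704 and 0.0502), while that of Lamb2 was gained (adjusted p = 0.0198). The cause of these shifts was not tested. Of the members, 14 had a mean under 100 normalized counts in shControl, with 3 libraries per line, and the part of depth was not tested.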
